A study of Mus musculus with 8 samples.

Results

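Fibroblasts cultured from mouse embryos (MEFs) were compared between Btg1 knockout (Btg1 KO) and wild type (WT) after both had been kept for 16 hours in DMEM without glutamine. RNA of 2 starved Btg1 KO and 2 starved WT samples was measured on Illumina bead arrays of the MouseRef-8 v2 design, 1 array per sample. The other 4 of the 8 arrays held untreated Btg1 KO and untreated WT cells, 2 arrays each. All cells were primary MEFs from embryos of day 13.5, and the Btg1 KO cells came from knockout mice. The methods give C57BL/6J as the strain of the knockout mice and name no strain for the WT embryos. The starved cells of both genotypes had dialyzed serum, and the medium did not differ between the genotypes compared here. A member of the comparison is a row of the value table. Its mean on the log2 scale was at least 3 in the starved Btg1 KO or the starved WT arrays. Some genes have more than 1 row, under different names. The level of 3 is the background level given in the methods. The members numbered 11811 of 18132 rows (65.1%), with 11005 rows at this level in Btg1 KO cells and 11027 in WT cells. The labels call the arrays of a group biological duplicates without saying whether they came from separate embryos, so p-values measure the spread between these arrays.

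BTG1 belongs to the BTG/TOB family of antiproliferative proteins, named for restraining cell division when overexpressed. Proteins that it binds include the arginine methyltransferase PRMT1 and the CCR4-NOT complex, which removes poly(A) tails from mRNAs. When an amino acid such as glutamine runs short, the kinase GCN2 phosphorylates the translation factor eIF2 alpha, translation of most mRNAs falls, and that of the transcription factor ATF4 rises. The comparison asks how the transcripts of starved cells differ when Btg1 is absent.

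The first check concerns the targeted gene. Btg1 lies on chromosome 10 at 96617001 to 96622813 of the mouse assembly GRCm38.p6. Its row measured 10.40 and 10.45 on the starved Btg1 KO arrays, against 12.40 and 12.40 on the starved WT arrays. The arrays of the genotypes did not overlap, and the difference was -1.97 on the log2 scale (standard error 0.10, adjusted p = 4.6e-05 from limma), the smallest adjusted p of all members. The row stayed far above the background level in Btg1 KO cells, and no source used here places its probe relative to the deleted part. The row was the only 1 of 4 measured BTG/TOB family members that passed the test. Btg3 measured 6.04 and 5.92 in Btg1 KO cells against 6.31 and 6.44 in WT cells, and Tob2 differed by -0.38 (standard error 0.18, adjusted p = 0.33). Btg2 was below 3 in both groups.

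Over 14 fibroblast markers, the median level was 9.63 and 9.66 in starved Btg1 KO cells and 9.51 and 9.76 in starved WT cells. Vim, a bright one, measured 13.42 and 13.60 in Btg1 KO cells and 13.06 and 13.27 in WT cells. Fap was lower, with 6.51 and 6.15 in Btg1 KO cells and 4.71 and 4.64 in WT cells. Markers of macrophages, phagocytes that can grow in such cultures, differed between the arrays. The log2 sum of 17 macrophage marker rows was 13.69 and 12.02 in starved Btg1 KO cells, against 11.37 and 11.07 in starved WT cells, so that Btg1 KO replicate 1 stood apart. Of 16 markers with a level of 3 or more, both Btg1 KO arrays lay above both WT arrays for 11, against 22.8% of all members. The test was passed by 1 of the 16, against 2.41% of all members. Lyz2, a lysozyme of phagocytes, measured 12.25 and 10.48 against 10.24 and 9.87 in WT cells. Ptprc, a marker of most white blood cells, was below 3 in both groups. Itgam, an integrin of myeloid cells, measured 2.95 and 2.27 in Btg1 KO cells against 3.37 and 3.11 in WT cells, close to background. Fcer1g, a signalling chain of Fc receptors, stood apart on a single array, with 2.13 and 7.43 in Btg1 KO cells against 7.28 and 7.34 in WT cells. The same row was at 2.35 in untreated Btg1 KO replicate 1 and between 7.26 and 7.69 on the other 3 untreated arrays. Apart from this, the Y-linked Eif2s3y measured 2.49 and 1.94 in Btg1 KO cells against 3.25 and 9.49 in WT cells, so that WT replicate 2 stood apart. The median of 4 Y-linked rows on WT replicate 2 was 6.47 starved and 6.31 untreated, and at most 2.72 on the other arrays. The measured row of the X-inactivation list was at 3.48 and 2.87 on WT replicate 2, and between 6.91 and 7.98 elsewhere. Whether the cells of the arrays differed in sex was not tested. In bulk samples, more cells of a type and more RNA per cell cannot be told apart. The part of these array differences in the genotype differences below was not tested.

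**Figure D1:**
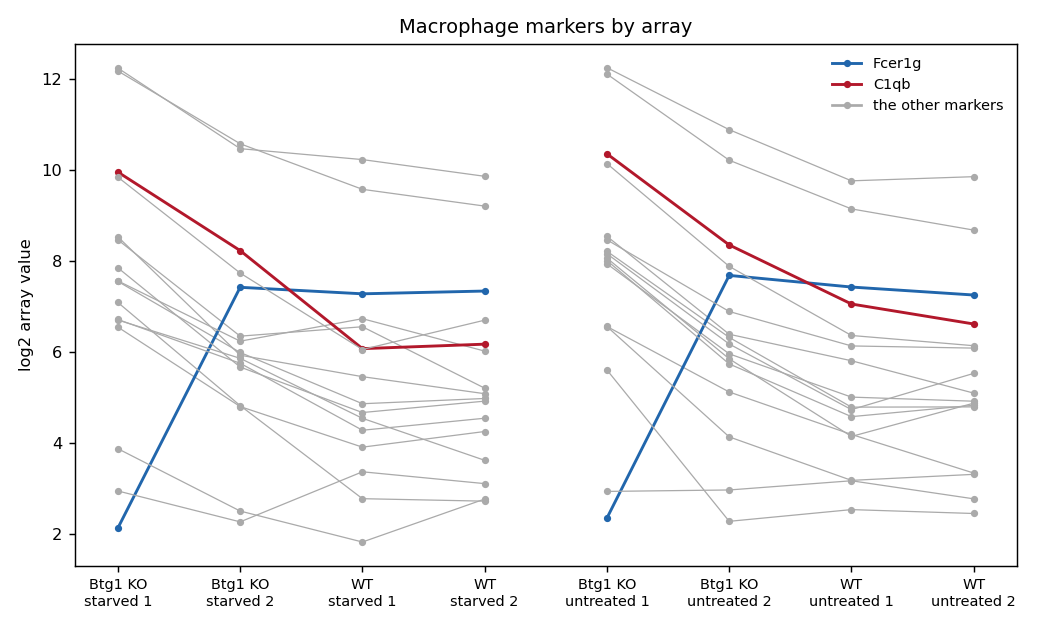
Log2 array values of 16 macrophage marker genes with a level of 3 or more (lines) on the 8 arrays, Btg1 KO left of WT, starved arrays on the left and untreated arrays on the right. Most markers are highest on the arrays of Btg1 KO replicate 1, where C1qb reaches 9.96 after starvation, while Fcer1g is at 2.13 there and near 7.3 on both starved WT arrays.

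With an adjusted p under 0.05 from limma over 12691 rows, 285 members differed between starved Btg1 KO and starved WT cells (2.41% of members). Of these, 204 were higher in Btg1 KO cells (1.73% of members) and 81 were lower (0.686% of members). Below, a row that rose or fell is one called higher or lower in starved Btg1 KO than in starved WT cells. The words do not describe a change from untreated to starved cells. Counts of called rows in a list are to be set against these shares of all members. The median difference was 1.01 for the higher rows and -0.72 for the lower rows, and the smallest absolute difference that passed was 0.35. The cut-off of the methods, a fold of at least 3 with no test, was applied there to starved against untreated cells. Set here on the genotype difference of starved group means, it gave 131 higher rows (1.11% of members) and 26 lower ones (0.22% of members). Of these, 43 and 11 also passed the test. In all 285 rows the arrays of the genotypes did not overlap. The rows were called on these same arrays, so this is no further evidence. Over all members, both Btg1 KO arrays were above both WT arrays in 22.8% and below both in 28.4%. The number of calls depended on 2 arrays per group and on sharing information between rows. Without the intensity trend in limma no row passed, with 1772 rows at an unadjusted p under 0.05, while 2136 members (18.1%) were under it with the trend. With single starved arrays left out, 9 to 110 rows passed. Without both arrays of Btg1 KO replicate 1, 40 of the 285 rows passed, and without both arrays of WT replicate 2 likewise 40. All 285 kept their direction in each of these fits.

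The rows with the largest positive differences included genes of innate immunity and secreted regulators of growth. Ifi202b, an interferon-inducible gene of the mouse p200 family, measured 6.817 and 6.9997 in Btg1 KO cells, against 2.39 and 2.19 in WT cells. Since the WT mean is below the background level, this is at least 15.02-fold higher when set against a level of 3 (adjusted p = 0.0034 from limma). Gdf10, a secreted protein of the BMP family, measured 4.82 and 4.82 against 2.29 and 1.78 in WT cells, at least 3.53-fold higher on the same basis. These rows were near or below background on both WT arrays and clearly above it on both Btg1 KO arrays. Prelp, a small leucine-rich proteoglycan that anchors basement membranes to connective tissue, measured 8.41 and 9.07 against 4.97 and 6.47 in WT cells, a difference of 3.01 (standard error 0.45). Rgs4, which speeds the shutdown of G protein signalling, measured 9.51 and 8.61 against 6.37 and 6.36. Nrep, the neuronal regeneration related protein, measured 10.49 and 10.43 against 7.06 and 8.75.

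Genes known from macrophages were also among these rows. C1qb, a chain of complement C1q, measured 9.96 and 8.23 in Btg1 KO cells against 6.08 and 6.18 in WT cells, a difference of 2.97 (standard error 0.63). Slc15a3, a lysosomal peptide transporter, measured 7.90 and 6.23 against 3.74 and 2.98. Mmp12, the macrophage elastase, measured 7.24 and 5.94 against 4.27 and 3.91. These were the 3 called rows with a gap of 1 or more between the Btg1 KO arrays, and in each replicate 1 was the higher one. Tlr7, a receptor for single-stranded RNA, measured 5.71 and 4.79 against 2.33 and 3.40, at least 4.76-fold higher against a level of 3. With Btg1 KO replicate 1 left out the differences were 2.11 for C1qb (adjusted p = 0.025 from limma), 2.87 for Slc15a3 (adjusted p = 0.056), 1.85 for Mmp12 (adjusted p = 0.14) and 1.93 for Tlr7 (adjusted p = 0.18). KLRA33, named for the killer cell lectin-like receptors, was at least 7.29-fold higher against a level of 3. The remaining rows of the 15 with the largest positive differences were Itgbl1, Ccn5, Samd5, Tppp3 and LOC100038894, with differences from 2.24 to 2.59. Of these 15, 6 passed without both arrays of Btg1 KO replicate 1, and 6 without both of WT replicate 2.

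**Figure D2:**
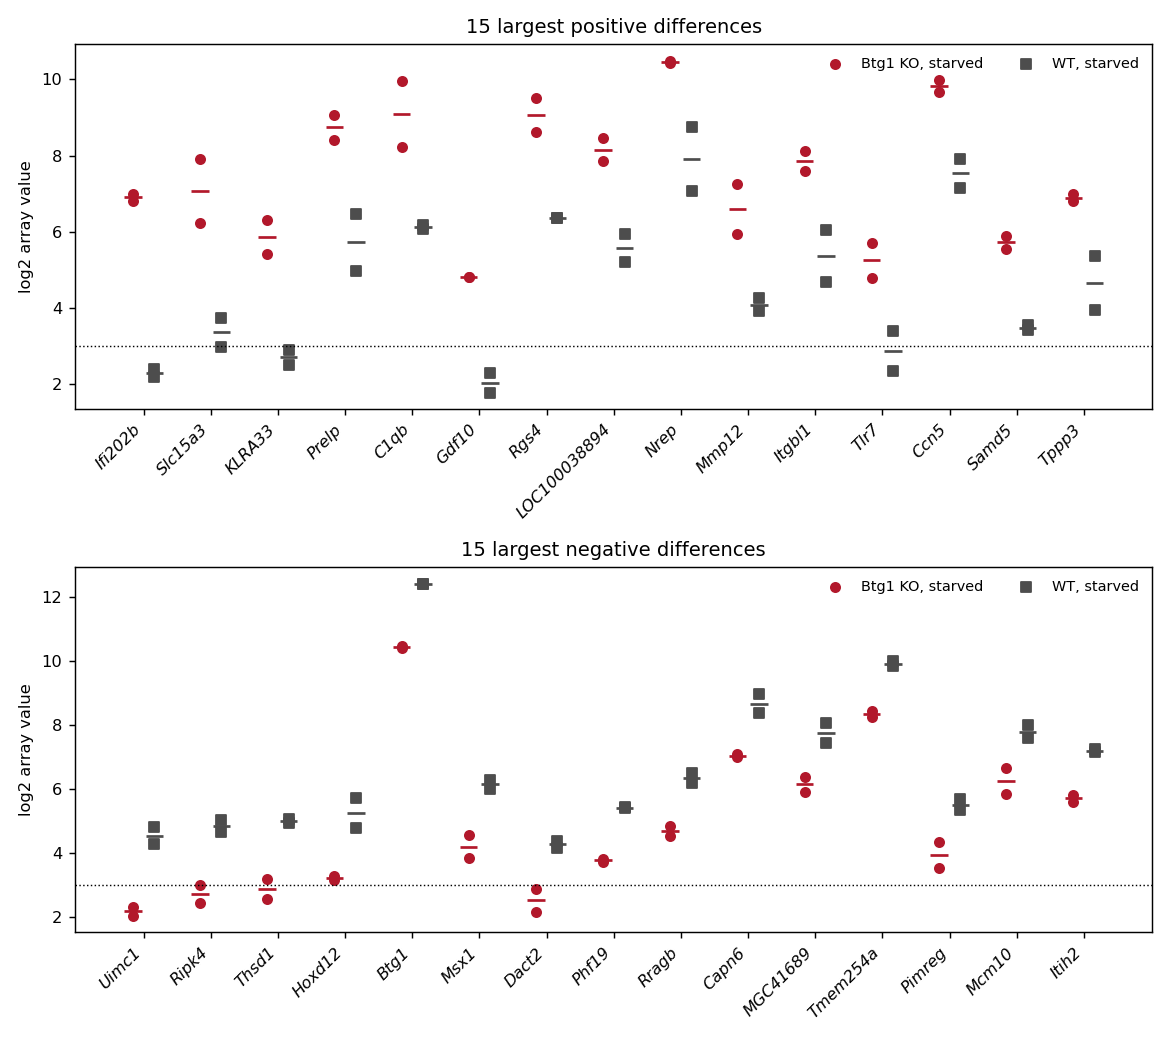
Log2 array values of the 15 rows with the largest positive (top) and the 15 with the largest negative differences (bottom) among rows with an adjusted p under 0.05, with the starved Btg1 KO arrays (red circles) left of the starved WT arrays (grey squares), horizontal lines at the group means of 2 arrays and the background level of 3 dotted. By the rule that chose the rows, both Btg1 KO arrays lie on the same side of both WT arrays in each. WT means of Ifi202b, KLRA33, Gdf10 and Tlr7 and Btg1 KO means of Uimc1, Ripk4, Thsd1 and Dact2 are below 3.

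Among the rows with the largest negative differences, several were close to background in Btg1 KO cells. Uimc1, a subunit of the BRCA1-A complex that binds ubiquitin chains at DNA breaks, measured 2.03 and 2.31 in Btg1 KO cells against 4.27 and 4.81 in WT cells, which is at least 2.90-fold lower against a level of 3. Ripk4, a kinase known from keratinocyte differentiation, measured 2.44 and 2.98 against 5.01 and 4.65, at least 3.56-fold lower. Both genes were below the background level on both Btg1 KO arrays. Msx1, a homeobox factor of limb and craniofacial mesenchyme, measured 4.55 and 3.83 against 6.00 and 6.27 in WT cells, a difference of -1.95 (standard error 0.42, adjusted p = 0.049 from limma). Rragb, a Rag GTPase that carries amino acid signals to mTORC1, measured 4.53 and 4.85 against 6.48 and 6.18, a difference of -1.64 (standard error 0.35, adjusted p = 0.049). Itih2, a heavy chain that binds hyaluronan, differed by -1.495 and Capn6, a calpain without protease activity, by -1.63. Phf19, an accessory subunit of Polycomb complex PRC2, measured 3.71 and 3.82 against 5.39 and 5.44. Pimreg and Mcm10, genes known from cycling cells, differed by -1.57 and -1.54 (standard errors 0.33 and 0.30). Thsd1 and Dact2 were at least 3.97-fold and 2.41-fold lower when their Btg1 KO level was set to 3. The other rows of the 15 were Hoxd12, MGC41689 and Tmem254a, with differences from -2.03 to -1.58, and Btg1 itself. Without both arrays of Btg1 KO replicate 1, 3 of the 15 passed (Btg1, Thsd1 and Tmem254a), and without both of WT replicate 2 also 3 (Btg1, Capn6 and Tmem254a).

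Collagens give connective tissue its tensile strength. Of 20 measured collagen chains, 8 were higher in starved Btg1 KO than in starved WT cells, against 1.73% of all members. None passed in the other direction, and the median difference of the 20 was 0.64 against -0.03 over all members. Col1a1 was lower after starvation in both genotypes, with group means of 12.41 untreated and 11.60 starved in Btg1 KO cells, and 12.19 and 10.71 in WT cells. Both Btg1 KO arrays were above both WT arrays for 14 of the 20 chains and below for 1, against 22.8% and 28.4% of all members. Col7a1, the chain of anchoring fibrils, measured 8.32 and 8.34 in Btg1 KO cells against 6.39 and 6.95 in WT cells, a difference of 1.66 (standard error 0.20, adjusted p = 0.0074 from limma). Col3a1 of fibrillar collagen measured 6.92 and 6.85 against 5.88 and 5.45. Col4a1, a main chain of basement membranes, measured 13.12 and 13.01 against 12.24 and 12.40, a smaller difference of 0.75 (standard error 0.09). These chains were picked from the called rows, so arrays that do not overlap are no further evidence. Col1a1, Col4a2, Col4a5, Col6a1 and Col6a2 also rose, by 0.69 to 1.05. The lowest difference of the list was that of Col11a1 with -0.35 (standard error 0.37). With a starved array left out, the median of the 20 lay between 0.50 and 0.75.

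Of 21 measured matrix proteases and their inhibitors, 6 rose, against 1.73% of all members, none passed in the other direction and the median difference was 0.48. They hold enzymes and inhibitors alike. Adamts4, which cleaves aggrecan, measured 7.64 and 7.45 in Btg1 KO cells against 5.82 and 6.25 in WT cells. Timp3, an inhibitor bound to the matrix, measured 11.57 and 11.10 against 10.51 and 9.99. Mmp2, Mmp23 and Timp2 rose by 0.87, 0.89 and 0.75, and Mmp12 is described above. Serpinb2, a plasminogen activator inhibitor, had 7.30 and 7.27 against 8.34 and 8.11, a difference of -0.94 that did not pass (standard error 0.78). Of 7 small leucine-rich proteoglycans, Prelp rose and the rest did not pass, with Bgn at 14.44 and 14.66 against 14.46 and 14.60.

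Among 14 fibroblast markers, 5 rose, against 1.73% of all members, and none passed in the other direction, with a median difference of 0.49. Besides Col1a1 and Col3a1 these were Fap, a surface protease of activated fibroblasts, Pdgfrb, a receptor for platelet-derived growth factor, and Sparc, a matricellular protein. Fap measured 6.51 and 6.15 in Btg1 KO cells against 4.71 and 4.64 in WT cells, and Pdgfrb 7.88 and 7.65 against 6.77 and 6.66. Pdgfra, the other receptor of this kind, measured 7.15 and 8.26 against 8.57 and 8.98, a difference of -1.07 that did not pass (standard error 0.39, adjusted p = 0.205). Of 14 contractile genes of the kind that the serum response factor (SRF) drives, 4 rose, by 0.51 to 0.80, against 1.73% of all members. None of the 14 passed in the other direction. Acta2, smooth muscle actin, was among the brightest rows with 14.16 and 14.08 against 13.37 and 13.57 (difference 0.65, standard error 0.09, adjusted p = 0.013 from limma). Tagln measured 10.32 and 10.14 against 9.39 and 9.69, Ankrd1 rose by 0.80 and Tpm1 by 0.51. Of 7 measured muscle markers, Acta1, the actin of skeletal muscle, rose with 9.93 and 10.65 against 7.95 and 8.62 in WT cells, a difference of 2.01 (standard error 0.31), and none of the other muscle markers passed.

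Signalling genes were the next group. Of 20 measured members of the WNT list, 7 rose, against 1.73% of all members, and none passed in the other direction, with a median difference of 0.70. They comprise the ligands Wnt2 and Wnt5a, the receptor Fzd2, the secreted antagonist Sfrp1, Dkk3 of the Dickkopf family, and the matricellular proteins Ccn4 and Ccn5. Wnt2 measured 7.17 and 7.85 in Btg1 KO cells against 5.35 and 5.29 in WT cells, a difference of 2.19 (standard error 0.29, adjusted p = 0.012 from limma). Dkk3 measured 9.86 and 9.94 against 7.56 and 8.33, and Ccn5 9.99 and 9.66 against 7.14 and 7.92. Wnt5a, Fzd2 and Ccn4 rose by less, 0.68 to 0.74. Axin2, a transcript that canonical WNT signalling is known to raise, measured 3.47 and 3.45 against 2.43 and 3.34 and did not pass (difference 0.57, standard error 0.43). Wnt10a had the lowest difference of the list with -1.20 (standard error 0.38, adjusted p = 0.15). Of 21 TGF-beta and BMP genes, the ligand Tgfb2 and the activin antagonist Fst rose, against 1.73% of all members. Tgfb2 measured 7.98 and 7.71 against 6.61 and 6.44, and Fst 9.58 and 9.13 against 8.28 and 7.81. The Id genes, targets of BMP signalling, differed by 0.52 for Id1, 1.11 for Id2 and 0.52 for Id3, none of which passed.

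Of 19 measured chemokines, 3 rose, against 1.73% of all members. Ccl2, which attracts monocytes, measured 7.74 and 7.80 in Btg1 KO cells against 5.93 and 6.35 in WT cells, a difference of 1.63 (standard error 0.18, adjusted p = 0.0065 from limma). Ccl7, a related monocyte chemokine, measured 10.46 and 10.98 against 8.79 and 9.71, and Cxcl14 8.78 and 8.23 against 6.75 and 6.24. These 3 rows were high on both Btg1 KO arrays. Other chemokines that did not pass were high mainly on replicate 1. Pf4, a platelet and macrophage chemokine, measured 7.58 and 4.74 against 3.05 and 3.97, and Ccl4 6.75 and 4.93 against 4.29 and 3.24. The median difference over the list was 1.23, and 0.42 without both arrays of Btg1 KO replicate 1, where 1 of the 19 passed. The median of the macrophage markers was 1.84 and 0.80 in the same fit. Over the collagens it was 0.56 there with 1 call, over the WNT genes 0.63 with 3 calls, and over the proteases, fibroblast markers and contractile genes 0.37, 0.51 and 0.40 with 0 calls each. Without both arrays of WT replicate 2 the calls numbered 2 collagens, 2 WNT genes, 2 chemokines, 1 protease, 1 contractile gene and 0 fibroblast markers, and each of these medians stayed above 0.

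**Figure D3:**
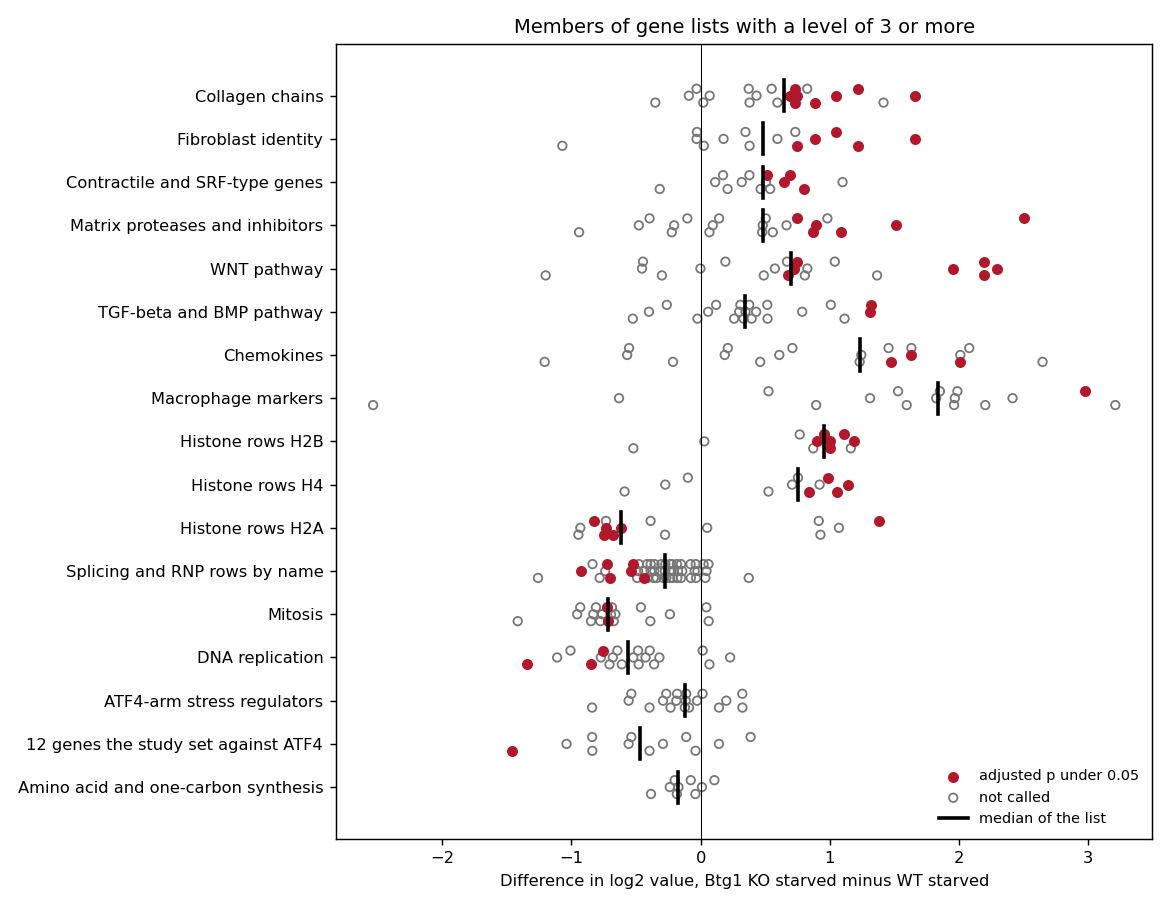
Differences in log2 value between starved Btg1 KO and starved WT cells (horizontal axis) for members of 17 gene lists, with rows that had an adjusted p under 0.05 filled, other rows open and a bar at the median. The collagen, WNT and chemokine lists lie mostly to the right of 0 with medians of 0.64, 0.70 and 1.23, and the mitosis and replication lists mostly to the left with -0.72 and -0.57.

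Genes of cell division had mostly negative differences. Of 19 measured mitosis genes, 2 fell, against 0.686% of all members, and none passed in the other direction. Of the 19, 15 lay below WT on both arrays against 28.4% of all members, and the median difference was -0.72. Cenpa, the histone H3 variant that marks centromeres, measured 10.83 and 11.10 in Btg1 KO cells against 11.75 and 11.63 in WT cells (difference -0.72, standard error 0.15, adjusted p = 0.042 from limma). Plk1, a kinase of mitotic entry, measured 8.39 and 8.57 against 9.36 and 9.04. Aurka, Ccnb1 and Birc5 differed by -0.93, -0.85 and -0.96 and did not pass, with adjusted p values of 0.0897, 0.0636 and 0.0648 from limma. Of 20 DNA replication genes, 3 fell, against the same 0.686%, 16 lay below WT on both arrays and the median was -0.57. Mcm7, a subunit of the replicative helicase, measured 5.52 and 5.86 against 7.12 and 6.95, a difference of -1.35 (standard error 0.21, adjusted p = 0.023). Cdt1, which loads that helicase, measured 10.36 and 10.18 against 11.34 and 10.90, and Fen1, a nuclease that processes Okazaki fragments, 9.69 and 9.72 against 10.64 and 10.27. The other MCM subunits had negative differences from -1.01 for Mcm3 to -0.48 for Mcm6 and did not pass. The median untreated differences of these lists were -0.75 for mitosis and -0.65 for replication. None of the mitosis or replication genes passed without both arrays of Btg1 KO replicate 1, where the medians were -0.60 and -0.33, and none without both of WT replicate 2, where they were -0.84 and -0.67.

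Of 14 regulators of the G1 phase, 1 passed, against 2.41% of all members. Ccnd1, cyclin D1, measured 13.17 and 13.10 in Btg1 KO cells against 12.46 and 12.62 in WT cells, a difference of 0.60 (standard error 0.09, adjusted p = 0.023 from limma). Cdkn2b, the inhibitor p15, measured 12.42 and 11.94 against 10.86 and 11.41 (difference 1.05, standard error 0.23, adjusted p = 0.052). Cdkn1a, the inhibitor p21, differed by 0.34 (standard error 0.12).

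The promoters of 4 called genes are printed here, to show the bases in front of a called gene of 4 groups, and they cover 200 bases before the annotated start. The sequences are from RefSeq for GRCm38.p6, read 5′ to 3′ on the strand of the gene. Areg, whose values follow in the account of the ATF4-linked genes, lies on the plus strand at chr5:91139399-91139598, with the cyclic AMP response element TGACGTCA and TATAAA in capitals. Mcm7 lies on the minus strand at chr5:138171884-138172083, with the E2F-type letters TTCCCGC and 2 copies of CCAAT, the letters of NF-Y sites, all read from the opposite strand, in capitals. Cenpa lies on the plus strand at chr5:30666686-30666885 with 2 CCAAT boxes on the opposite strand in capitals. Acta1 lies on the minus strand at chr8:123894776-123894975 with a CArG box, the site of SRF, and TATAAA in capitals.
Areg: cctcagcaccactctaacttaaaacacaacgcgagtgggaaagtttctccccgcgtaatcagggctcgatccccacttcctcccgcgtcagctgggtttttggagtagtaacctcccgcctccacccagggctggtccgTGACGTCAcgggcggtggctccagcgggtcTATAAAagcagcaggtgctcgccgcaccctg
Mcm7: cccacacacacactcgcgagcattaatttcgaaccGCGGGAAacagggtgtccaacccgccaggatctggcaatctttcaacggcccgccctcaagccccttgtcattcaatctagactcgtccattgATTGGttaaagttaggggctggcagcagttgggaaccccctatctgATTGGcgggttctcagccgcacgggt
Cenpa: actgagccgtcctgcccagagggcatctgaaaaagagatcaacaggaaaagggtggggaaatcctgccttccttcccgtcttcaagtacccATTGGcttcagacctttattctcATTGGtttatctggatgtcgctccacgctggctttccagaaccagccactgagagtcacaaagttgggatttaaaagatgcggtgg
Acta1: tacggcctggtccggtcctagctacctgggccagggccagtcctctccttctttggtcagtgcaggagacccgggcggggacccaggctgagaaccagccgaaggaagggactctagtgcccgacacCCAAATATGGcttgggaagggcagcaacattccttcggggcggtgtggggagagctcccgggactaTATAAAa

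Searched on both strands over the 250 bases before the start, TGACGTCA was in 1.55% of 32851 promoters, TTCCCGC in 3.82%, CCAAT in 33.8%, TATAAA in 12.4% and the CArG box in 1.47%. Of the genes that fell, 63 had a promoter in the table, and 36 of these (57.1%) held CCAAT, as did 53 of 139 genes that rose (38.1%) and 40.1% of 8875 member genes. The letters TTCCCGC were in 7 of the 63 (11.1%) and in 11 of the 139 (7.91%), against 7.3% of member genes. The letters TGACGTCA were in 3 (4.76%) and 4 (2.88%), against 2.81%. The CArG box, shown for a gene that rose, was in 3 genes that fell (4.76%) and in 2 that rose (1.44%), against 1.51% of member genes. TATAAA was in 12.7% of the genes that fell and 18.0% of those that rose, against 9.42%. The element TGATGNAA, the core of the sites that ATF4 is known to bind, was in 1 gene of each set (1.59% of those that fell and 0.719% of those that rose), against 2.58% of member genes and 3.45% of all promoters. A match describes letters and does not show that a factor binds there.

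Areg was the only called gene among the 12 glutamine-regulated genes that the study set against ATF4, a list chosen on these arrays and so no independent evidence of its direction. It encodes amphiregulin, a ligand of the EGF receptor, and measured 9.01 and 9.09 in starved Btg1 KO cells against 10.76 and 10.26 in starved WT cells, a difference of -1.46 (standard error 0.19, adjusted p = 0.010 from limma). Without Btg1 KO replicate 1 the adjusted p was 0.061. Both Btg1 KO arrays were below both WT arrays for 7 of the 12, against 28.4% of all members, and the median difference was -0.47. Atf4 itself measured 12.51 and 12.49 against 12.69 and 12.37, within the spread of the WT arrays (difference -0.03, standard error 0.12). Ptx3, a secreted pentraxin, measured 11.37 and 10.81 against 12.53 and 11.72 (difference -1.04, standard error 0.35, adjusted p = 0.17). Ddit3, which encodes the stress factor CHOP, measured 12.18 and 11.91 against 12.64 and 12.57, a difference of -0.56 (standard error 0.25, adjusted p = 0.31). Of the rest of the 12, Atf3 and Mt2 differed by -0.84, Stc2 by -0.54, Ppp1r15a by -0.40, Ndrg1 by -0.29, Trib3 by -0.11 and Slc6a9 by -0.04. Fgf21 with 0.14 and Tnfsf11 with 0.39 were the 2 positive differences, and none of these genes passed. The study compared fold induction by starvation within each genotype, and starved levels alone are compared here. In untreated cells Ddit3 and Slc6a9 were 0.76 and 0.64 higher in Btg1 KO than in WT cells, and neither passed. None of 19 stress regulators of the ATF4 arm passed (median -0.12), against 2.41% of all members. Nor did any of 9 amino acid and one-carbon synthesis genes, 9 amino acid transporters, 20 cytosolic aminoacyl-tRNA synthetases or 6 genes of glutamine and glutamate conversion, whose medians lay between -0.17 and -0.01. At that share of calls, lists of this size hold few or none, so these counts show little. Slc1a5, a glutamine carrier, had the lowest difference among the transporters with 4.18 and 3.60 against 5.66 and 5.01 (-1.44, standard error 0.37, adjusted p = 0.081). Gls2, a glutaminase, measured 3.88 and 4.38 against 5.60 and 5.48 (-1.41, standard error 0.37, adjusted p = 0.090). None of 7 arginine methyltransferases passed, with Prmt1 at 12.73 and 12.70 against 12.99 and 12.84, and none of 9 CCR4-NOT subunits.

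Hox genes encode the homeobox factors that record position along the body axis. Of 29 measured members, 4 rose, all of the Hoxb cluster, and 1 fell, of the Hoxd cluster. Over all members of the comparison, 1.73% rose and 0.686% fell. Hoxb5 measured 9.245 and 8.9999 in Btg1 KO cells against 7.95 and 8.01 in WT cells, a difference of 1.14 (standard error 0.13, adjusted p = 0.0065 from limma). Hoxb2 measured 8.44 and 8.38 against 7.33 and 7.37, Hoxb4 rose by 1.12 and Hoxb6 by 1.38. Hoxd12 measured 3.16 and 3.28 against 4.79 and 5.71, a difference of -2.03 (standard error 0.39, adjusted p = 0.035). Its neighbour Hoxd13 was at 3.30 and 2.38 against 4.59 and 4.56 (-1.74, standard error 0.39, adjusted p = 0.054). By cluster, the median difference was 0.85 over Hoxb, 0.24 over Hoxc, -0.18 over Hoxa and -0.26 over Hoxd genes. Paralogue numbers follow the order along a cluster. Numbers 1 to 6 held 11 positive and 2 negative differences with a median of 0.63. Numbers 9 to 13 held 3 positive and 8 negative differences with a median of -0.49. This division by number was made after the values were seen, and number and cluster were not tested apart. Without both arrays of Btg1 KO replicate 1, 3 Hox genes passed, and without both of WT replicate 2, 0 did. In untreated cells the same sets had 12 of 13 positive and 8 of 11 negative differences, with medians of 0.88 and -0.86. Of 32 limb and position factors outside the clusters, En1 rose (7.03 and 7.31 against 5.98 and 6.33) and Msx1 fell. Osr2, a factor of limb and palate, measured 5.27 and 6.09 against 7.38 and 7.03 and did not pass (-1.52, standard error 0.45, adjusted p = 0.13).

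**Figure D4:**
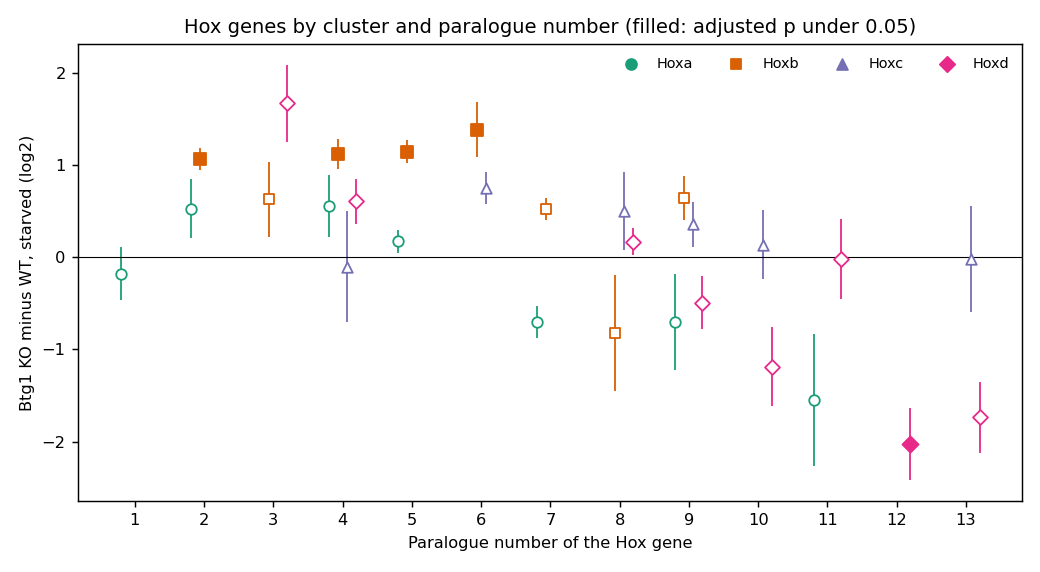
Difference in log2 value between starved Btg1 KO and starved WT cells (vertical axis, bars give the standard error) of 29 Hox genes, by paralogue number within the cluster (horizontal axis) and by cluster (colour and symbol). Filled symbols had an adjusted p under 0.05, the highest of them Hoxb6 with 1.38 and the lowest Hoxd12 with -2.03.

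Histone rows and rows of RNA-processing proteins were taken up after the values were seen. Of chromosome 13, which carries the main histone gene cluster of the mouse, 7.52% of 399 members passed, against 2.41% of all members. Of 11 measured H2B rows, 6 rose, and of 11 H4 rows 4 rose, while of 15 H2A rows 5 fell and 1 rose. Over all members, 1.73% rose and 0.686% fell. The calls without both arrays of Btg1 KO replicate 1 numbered 2 for H2B, 0 for H4 and 0 for H2A, and without both of WT replicate 2 they numbered 1, 0 and 2. H2bc11 measured 12.22 and 11.77 in Btg1 KO cells against 10.83 and 10.94 in WT cells (difference 1.11, standard error 0.18, adjusted p = 0.023 from limma). H4c8 measured 10.09 and 9.73 against 8.61 and 8.93. H2ac15 measured 9.95 and 9.85 against 10.89 and 10.42, and H2ac4, the H2A row that rose, 7.46 and 7.35 against 5.88 and 6.17. The coding sequences of the histone genes are close to identical within a class, so a row may measure several genes of its class, and its gene name is uncertain. Measured rows named for hnRNP, SR, LSM or snRNP proteins, which bind and splice pre-mRNA, numbered 52. Of these, 6 fell, against 0.686% of all members, and none passed in the other direction. None of the 6 passed in any fit without a starved array or without both arrays of either replicate named above. Both Btg1 KO arrays were below both WT arrays for 35 of the 52, against 28.4% of all members, and the median difference was -0.27. Hnrnpa1 measured 8.20 and 8.26 against 9.16 and 9.14 (difference -0.92, standard error 0.16, adjusted p = 0.024), and Srsf7 9.37 and 9.44 against 10.25 and 10.02. Hnrnph1, Hnrnpm, Lsm3 and Lsm5 fell by 0.70, 0.44, 0.54 and 0.53 on the log2 scale.

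Single members passed in other lists. Gstm2, a glutathione transferase, measured 10.91 and 11.03 in Btg1 KO cells against 9.98 and 10.01 in WT cells. Tnfrsf11b, osteoprotegerin, measured 9.84 and 9.76 against 8.88 and 8.90. Spp1, osteopontin, was lower with 13.73 and 13.66 against 14.13 and 14.16. Wipi1 of autophagy, Hsd17b7 of cholesterol synthesis and Pdia3 of protein folding rose by 0.76, 0.65 and 0.46. Of 40 genes next to Btg1 on its chromosome, 24 were measured. Ndufa12, a subunit of respiratory complex I, fell by 0.49 on the log2 scale, and no other of the 24 passed, against 2.41% of all members. Of these 7 called genes, Tnfrsf11b alone passed without both arrays of Btg1 KO replicate 1, and none did without both of WT replicate 2. In 26 of 51 lists no member passed, among them BCL2 family, p53-responsive, interferon-inducible, MHC class I, IGF, AP-1 and endothelial genes. With 2.41% of all members called, a short list without a call lies near that share.

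The same rows were set beside the difference between genotypes in untreated cells, measured on the other 4 arrays. Of the 285 rows, 267 had the same sign there, 190 of the 204 higher and 77 of the 81 lower ones, and 44 passed in both conditions, all with the same sign. Arrays of a genotype with the same replicate number deviated together across the conditions (r = 0.243 over rows in Btg1 KO and 0.118 in WT), so the conditions were not wholly independent, and the fit took no account of this. In untreated cells 83 members passed (0.703% of members). The median untreated difference was 0.51 for the rows called higher in starved Btg1 KO cells, against 1.01 in starved cells. For the rows called lower it was -0.55, against -0.72 in starved cells. The rows were chosen on the starved arrays, so no comparison rests on these medians. Btg1 and Hoxb5 had untreated differences of -1.94 and 0.94, close to those in starved cells. Ifi202b measured 7.19 and 5.84 in untreated Btg1 KO cells against 2.27 and 1.65 in untreated WT cells. Other rows differed little between the genotypes in untreated cells. Ccl2 had an untreated difference of -0.25 against 1.63 in starved cells, Dkk3 0.14 against 1.95, Ccn5 0.20 against 2.29 and Acta2 -0.01 against 0.65. Rragb had -0.04 against -1.64. The difference between these differences passed the test for no member in limma, with 775 members at an unadjusted p under 0.05 (6.56% of members). The smallest adjusted p, 0.23, was that of Ccl2. Rows that pass after starvation and not without it are therefore not shown to differ between the conditions.

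**Figure D5:**
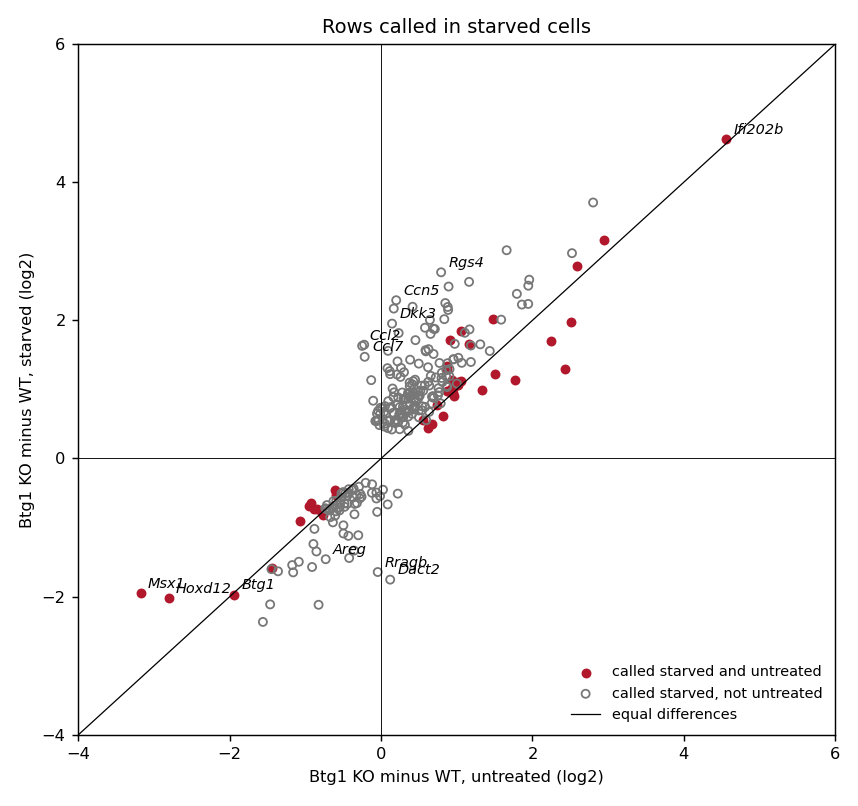
Difference between Btg1 KO and WT cells in starved cells (vertical axis, log2) against the difference in untreated cells (horizontal axis, log2) for the 285 rows with an adjusted p under 0.05 in starved cells, filled where the untreated difference passed too. Ifi202b and Btg1 lie near the line of equal differences, and Ccl2, Dkk3 and Ccn5 lie above it with starved differences of 1.63, 1.95 and 2.29.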

How the data were processed

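The deposited log2 values, made by the authors with RMA in the ArrayStar software from Illumina bead array data (GenomeStudio 2011.1 in the submitters' processing notes), were used as given. Bead counts and detection p-values were not used here, so background was judged by the level of 3. A second deposited table holds the authors' log2 group means and fold ratios. Its group means differ from those of the arrays by at most 5e-06 over 18109 shared rows, and its ratios were not used. Symbols come from a RefSeq table of GRCm38.p6. Of 18132 rows, 14305 carried a current symbol, 2660 a synonym and 922 only the name in the table.

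A group mean of 3 or more was found in 12691 rows, which were fitted with limma 3.58.1 in R 4.3.3, as a linear model of the group means of all 8 arrays with a trend of the variance on intensity (prior degrees of freedom 5.48, residual 4). P-values are two-sided, with Benjamini-Hochberg adjustment over these rows. The fit was tested on simulated data. The number of arrays limits the precision. Row medians of the arrays were 3.78 to 3.81, and replicates correlated at 0.981 to 0.987.

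The members, the gene lists and the tests were chosen with earlier results of these data known. Named genes are Btg1, Btg2, Atf4, Prmt1 and the 12 genes the study names, the 15 higher and 15 lower rows with the largest difference among those with an adjusted p under 0.05 and arrays that do not overlap, and up to 4 members of each list, called ones first. Other genes were named after their values were seen. A group with a mean below 3 is given as a bound against 3. Alternatives were other filters, scalings, thresholds and variance models, the methods' t-test, the replicate number as a block and each array left out.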

Additional observations from a re-analysis of the deposited data

How the results depend on the processing

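The direction of all 285 called rows was kept in every fit that left out arrays, and their number was not. Without the intensity trend 0 rows passed in limma, with 1772 at an unadjusted p under 0.05. By the methods' t-test 1 row passed after Benjamini-Hochberg adjustment, EIF3S4, which is not among the 285 and whose deposited values were the same on both arrays of each starved group (12.99 in Btg1 KO and 13.33 in WT), and 1395 were under 0.05 before it. An adjusted p under 0.01 left 24 rows, and a log2 difference of at least 1 as well as an adjusted p under 0.05 left 128. With 1 array left out the count lay between 9 and 444. It was 9 without starved Btg1 KO replicate 1, 12 without starved Btg1 KO replicate 2, 12 without starved WT replicate 1, 110 without starved WT replicate 2, 444 and 442 without untreated Btg1 KO replicates 1 and 2, and 129 without either untreated WT array. A group left with 1 array was assumed to vary like the others. Without both arrays of Btg1 KO replicate 1 the count was 46, and without both of WT replicate 2 it was 49, both chosen after seeing the data. The remaining filters, scalings and variance models gave 227 to 425 rows. The cause of these changes was not tested.

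Deviations of starved arrays with the same replicate number correlated at 0.08 between the genotypes, so the numbers were not taken as pairs. Across the conditions of a genotype they correlated at 0.243 in Btg1 KO and 0.118 in WT. With the replicate number as a block 572 rows passed, and 914 on the starved arrays alone, with all 285 among them. The share of higher rows was 71.6% in the fit reported and 62.4% with the block on the starved arrays.

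By the fold of 3, 157 rows passed, 29 when all 4 array pairs had to, and 155 to 290 with a starved array left out, of which 290 without Btg1 KO replicate 2 and 248 without WT replicate 2. No genotype difference was shown to depend on starvation in any fit run, with 525 to 1127 rows at an unadjusted p under 0.05. With a starved array left out, the difference of Atf4 lay between -0.19 and 0.13 and the difference of Fcer1g between -5.18 and 0.11, the upper values without WT replicate 1 and without Btg1 KO replicate 1.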

Other observations

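Some rows with small errors lay outside the lists, and were named after their values were seen. Prss23, a secreted serine protease, measured 9.67 and 9.67 in starved Btg1 KO cells against 8.22 and 8.38 in starved WT cells, a difference of 1.37 (standard error 0.11, adjusted p = 0.0011 from limma). Cd248, a surface protein of stromal cells, measured 7.76 and 7.62 against 6.22 and 6.29, and in untreated cells 10.10 and 9.97 against 9.65 and 9.65. Gpx3, a secreted glutathione peroxidase, measured 10.14 and 9.76 against 7.91 and 7.97 in starved cells.

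Cdo1, the dioxygenase that starts the breakdown of cysteine, measured 6.72 and 6.75 in starved Btg1 KO cells against 4.28 and 4.85 in starved WT cells, a difference of 2.17 (standard error 0.25, adjusted p = 0.0069 from limma). In untreated cells it was at 9.17 and 8.64 against 8.95 and 8.52, and the genotypes overlapped there. Among rows that fell were Nop56 and Nop58, core proteins of the box C/D particles that methylate ribosomal RNA, which fell by 0.49 and 0.51 on the log2 scale. Socs2, a feedback inhibitor of growth hormone signalling that lies near Btg1 on chromosome 10, measured 8.89 and 8.60 against 9.69 and 10.03 and did not pass (difference -1.11, standard error 0.25, adjusted p = 0.0535).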
